A study of Rattus norvegicus with 6 samples.

Results

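Signalling through Lifr and the shared receptor chain gp130 was examined in rat livers after faecal microbiota transplantation. The 8 genes examined are Lifr, Il6st (gp130), Il6r, Osmr, Jak1, Jak2, Stat3 and Socs3, taken by name from the 30957 genes of the deposited table, and all 8 were among the 12210 genes with enough counts to be tested. They are the gp130 pathway around Lifr, and Lifr was itself chosen by its difference between these same livers. The difference between the groups is therefore given for the 8 genes as a description. Where a member is said to meet the criteria given below, that too is a description and is not read as a test. The recipients were female Sprague Dawley rats, bought at 3 weeks of age. All of them, controls included, first drank an antibiotic cocktail in 3 courses to deplete their own gut microbes. They were then gavaged daily for 14 days with microbiota pooled from donors injected with PBS (t-PBS rats) or with the androgen precursor dehydroepiandrosterone (DHEA; t-DHEA rats), so that no recipient was itself injected with DHEA. Liver RNA of 3 t-PBS and 3 t-DHEA rats was sequenced. Rats were kept in pairs and the inoculum was pooled, and the labels do not say which rats shared a cage.

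The cytokines of this family, among them interleukin 6, leukaemia inhibitory factor and oncostatin M, signal through complexes that hold gp130 together with a more specific receptor chain (IL6R, LIFR or OSMR). Janus kinases bound to the receptor tails phosphorylate them and STAT3, which enters the nucleus and switches on target genes. One target is Socs3, whose product blocks the receptor and so ends the signal. In liver the pathway is best known for driving the acute phase response, in which hepatocytes secrete fibrinogen, haptoglobin and related plasma proteins.

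The counts on genes ran from 12348511 to 14316886 per liver, and a count of 0 allows up to 3, or 0.21 to 0.248 CPM (counts scaled to the library size), for counting error only. The study's criteria (p under 0.05 before adjustment, fold-change over 1.2) were applied to edgeR's quasi-likelihood test, and 604 of the 12210 genes (4.95%) met them, with 1.97% higher and 2.98% lower in t-DHEA livers. After Benjamini-Hochberg adjustment 0 genes passed 0.05 in that test, against 634 before adjustment and 24 by DESeq2 after it. The labelled tissue was checked on 10 hepatocyte genes, which summed to 133100 to 145700 CPM in t-PBS and 136300 to 160600 CPM in t-DHEA livers. Of the markers of other cells, 6 mesothelial genes summed to 24.7 to 28.4 CPM in t-PBS against 1.57 to 12.8 CPM in t-DHEA livers. The 6 bile duct genes, which share Krt7 with them, summed to 19.0 to 23.6 CPM against 9.501 to 17.2 CPM, and the 6 red blood cell genes found to 249 to 391 CPM against 417 to 827 CPM. The sums of 8 Kupffer cell genes overlapped, at 474 to 569 CPM against 502 to 682 CPM. Fewer cells of a type and less RNA per cell cannot be told apart in these bulk samples.

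Lifr, the receptor for leukaemia inhibitory factor, differed most between the groups among the 8 genes. Its expression was 928, 819 and 569 CPM in t-PBS rats 1, 2 and 3, and 1904, 2091 and 770.0 CPM in t-DHEA rats 1, 2 and 3. A pair of t-DHEA livers thus stood above every t-PBS liver, whereas t-DHEA rat 3 lay below t-PBS rats 1 and 2, so that the groups overlapped. The means were 772 ± 184 CPM (SD, n = 3) in t-PBS and 1589 ± 715 CPM (SD, n = 3) in t-DHEA livers, a log2 fold change (log2FC, t-DHEA over t-PBS) of 1.04 ± 0.34 (SE). These means rest on 7540 to 27956 counts per liver, so that counting error is small beside the spread between rats. Leaving out t-DHEA rat 3 gave a log2FC of 1.37, and Lifr did not meet the criteria when t-PBS rat 3 or t-DHEA rat 1 was left out. The 6 mesothelial genes summed to 6.19, 1.57 and 12.8 CPM in t-DHEA rats 1, 2 and 3, the reverse of the order of Lifr in these livers. The bile duct sums (13.2, 9.501 and 17.2 CPM) and Kupffer cell sums (558, 502 and 682 CPM) had the same order as the mesothelial sums. In t-PBS rats 1, 2 and 3 the mesothelial sums were 24.7, 28.4 and 27.55 CPM, not the reverse of Lifr. Nor were the bile duct sums (19.1, 23.6 and 18.95 CPM) or the Kupffer cell sums (535, 474 and 569 CPM) of these t-PBS rats. The part of these cells in the difference was not tested. The hepatocyte sums were 160600, 145600 and 136300 CPM in t-DHEA rats 1, 2 and 3.

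Osmr, the receptor chain for oncostatin M, followed Lifr from liver to liver at a far lower level. It stood at 15.8, 14.7 and 10.5 CPM in t-PBS rats 1, 2 and 3, and at 22.5, 30.2 and 14.4 CPM in t-DHEA rats 1, 2 and 3. The same pair of t-DHEA livers was above all t-PBS livers, and t-DHEA rat 3 again fell below t-PBS rats 1 and 2. The log2FC was 0.71 ± 0.26 (SE), from 139 to 403 counts per liver. It was 0.43 without t-DHEA rat 2, and Osmr did not meet the criteria when that rat, t-DHEA rat 1 or t-PBS rat 3 was left out, or with limma on FPKM.

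**Figure D1:**
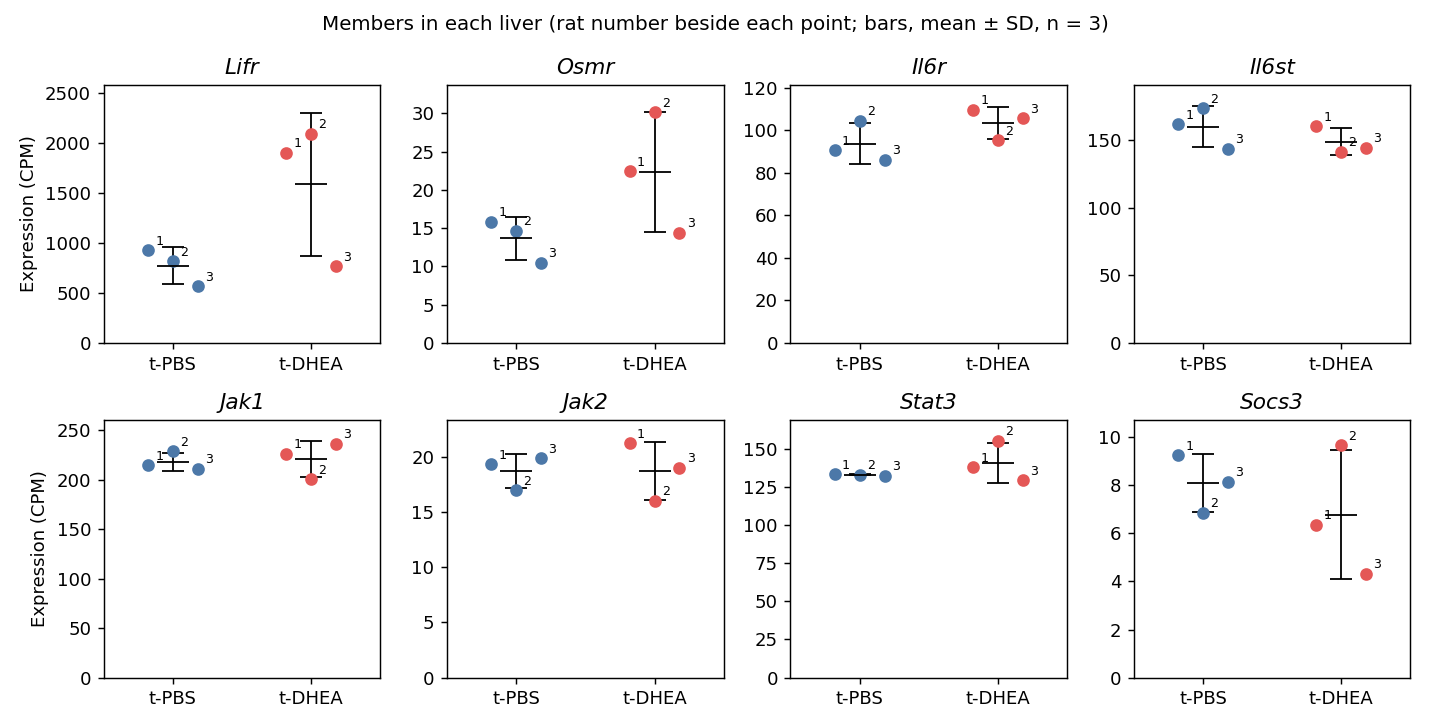
Expression of the 8 genes in each liver, in CPM on a linear axis from 0, with t-PBS livers in blue and t-DHEA livers in red, the rat number beside each point, and bars for the mean ± SD (n = 3). Lifr and Osmr are high in t-DHEA rats 1 and 2 and not in t-DHEA rat 3, and the groups overlap for all 8 genes.

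The order of the 6 livers was identical for Lifr and Osmr. From low to high it was t-PBS rat 3, t-DHEA rat 3, t-PBS rat 2, t-PBS rat 1, t-DHEA rat 1 and t-DHEA rat 2. On log2 CPM, Pearson's r between the genes was 0.976 and Spearman's rho was 1.0 over the 6 livers, which are values over both groups and carry no test. Of the 11785 genes with a mean of at least 1 CPM that were set against Lifr, Osmr ranked at 7, and 22 genes (0.187%) had the same order of livers as Lifr. The 5 genes most like Lifr were Lclat1, Zmiz1, Dis3, Lrp6 and Rasgef1b, with r from 0.976 to 0.987. Zmiz1, a transcriptional coregulator, was the most variable of these, from 36.1 CPM in t-PBS rat 3 to 72.3 CPM in t-DHEA rat 2. Lrp6, a Wnt co-receptor, ran from 60.9 CPM in t-PBS rat 3 to 102 CPM in t-DHEA rat 1, and Dis3, a catalytic subunit of the RNA exosome, from 8.68 to 12.2 CPM. With only 6 livers high values of r are common, and 90 genes had an r above 0.9 and 81 one below -0.9.

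**Figure D2:**
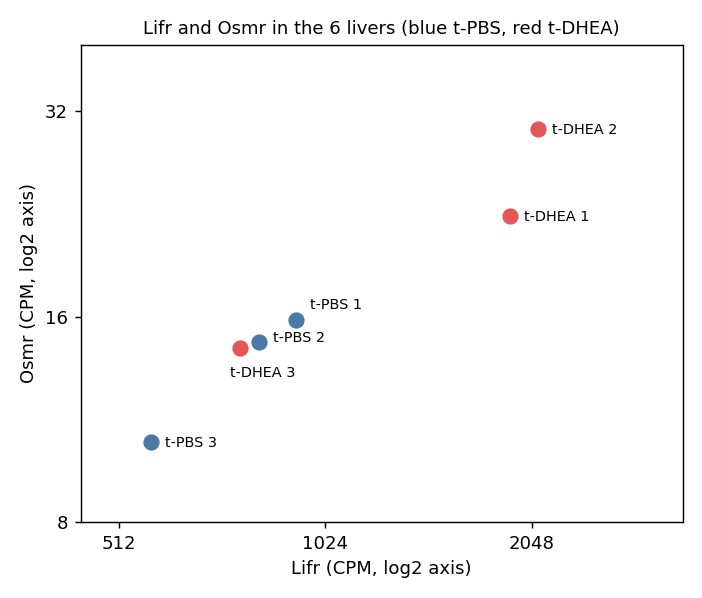
Osmr against Lifr in the 6 livers, both in CPM on log2 axes, with t-PBS livers in blue and t-DHEA livers in red. The points rise together from t-PBS rat 3 (569 and 10.5 CPM) to t-DHEA rat 2 (2091 and 30.2 CPM), and t-DHEA rat 3 lies among the t-PBS livers.

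Among the remaining members Stat3 was the most like Lifr, with a Pearson's r of 0.81 and a Spearman's rho of 0.943, at rank 274. Its order of the 6 livers was that of Lifr except that t-DHEA rat 3 lay below t-PBS rat 3. Its range was narrow, from 129 to 155 CPM. The others did not share the pattern. Pearson's r with Lifr was 0.38 for Il6r, 0.24 for Socs3, -0.04 for Il6st, -0.19 for Jak2 and -0.32 for Jak1, each over 6 livers.

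Lifr and Osmr are also neighbours on the chromosome. In Rnor_6.0, the build of the deposited table, Lifr lies on chromosome 2 from 56426367 to 56489415 and Osmr on chromosome 2 from 56110777 to 56151531. The gap of 274.8 kb between them held a single listed gene, known by a clone name and with no count in any liver. Within 1000 kb of Lifr the table lists 15 genes, of which 9 were tested. The 7 tested besides Lifr and Osmr had log2 fold changes from -0.21 to 0.23, none met the criteria, and their r with Lifr ran from -0.60 to 0.46. Rictor, a subunit of the mTORC2 kinase complex and the nearest tested gene on the far side of Osmr, had a log2FC of 0.02 ± 0.19 (SE). C9, the terminal complement component, had one of 0.13 ± 0.13 (SE). Egflam, on the other side of Lifr, had 0 to 8 counts per liver and was not tested. The joint pattern of Lifr and Osmr was therefore not seen in the other tested genes of the interval, which was examined after the values of both had been seen.

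**Figure D3:**
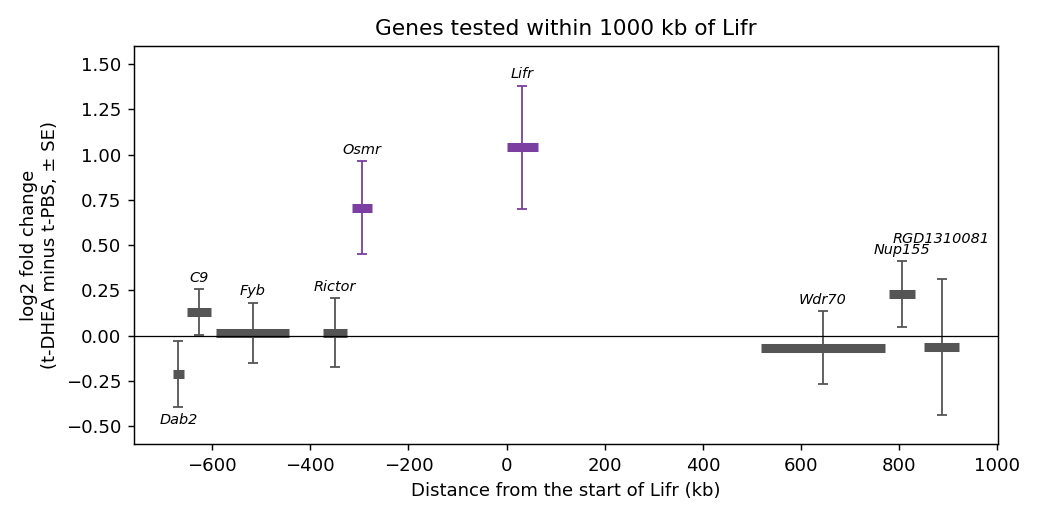
Log2 fold changes (t-DHEA minus t-PBS, bars for the standard error) of the 9 genes tested within 1000 kb of Lifr, against distance from the start of Lifr in kb, with the thick line spanning each gene. Osmr (0.71) and Lifr (1.04) stand above the 7 others, which lie between -0.21 and 0.23.

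The stretches before the start of both genes are shown because these are the members that varied together most closely. They are the 250 bases upstream of the start of a RefSeq transcript in GRCr8, which is not the build of the counts, printed 5′ to 3′ on the strand of the gene. For Lifr the window is chr2:57963139-57963388 on the plus strand, and this start lies 11602 bases inside the span of the gene. For Osmr it is chr2:57688562-57688811 on the minus strand, with the start 241 bases inside the span. Capitals mark a CCAAT box (CCAAT) or a GC box (GGGCGG) on either strand.
Lifr: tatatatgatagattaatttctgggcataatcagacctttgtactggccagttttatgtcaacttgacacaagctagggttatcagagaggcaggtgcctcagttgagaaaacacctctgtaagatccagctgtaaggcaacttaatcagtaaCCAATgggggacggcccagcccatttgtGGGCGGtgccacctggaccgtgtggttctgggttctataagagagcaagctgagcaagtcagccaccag
Osmr: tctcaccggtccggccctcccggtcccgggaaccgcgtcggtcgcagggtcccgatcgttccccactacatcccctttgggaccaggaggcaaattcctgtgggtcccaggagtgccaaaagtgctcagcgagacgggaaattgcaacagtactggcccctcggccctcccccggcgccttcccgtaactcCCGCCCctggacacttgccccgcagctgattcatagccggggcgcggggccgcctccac

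Both windows held a GC box, as did 30.5% of the 33469 RefSeq windows of this length, and the Lifr window also held a CCAAT box, found in 34% of windows. The GC content was 48.0% for Lifr and 67.6% for Osmr. Neither held the palindrome to which STAT proteins bind (TTCNNNGAA, both strands), which 7.67% of windows held, nor its form with a spacer longer by 1 base, held by 6.25%. The same was true of the windows of Il6st, Il6r, Jak2, Stat3 and Socs3, while that of Jak1 was not looked at. The starts used lie 11360 bases inside the gene span for Il6st, 1496 for Il6r and 1207 for Socs3, so that these windows, like that of Lifr, may not hold the main promoter. An E box (CACGTG), a motif of clock proteins among others, was found only in the Il6r window of these 7, and in 5.59% of all windows. These are matches of letters in windows of 250 bases and say nothing of binding in these livers.

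Il6r, the receptor chain for interleukin 6, stood at 90.6, 105 and 86.1 CPM in t-PBS rats 1, 2 and 3 and at 110, 95.3 and 106 CPM in t-DHEA rats 1, 2 and 3. The groups overlapped, with a log2FC of 0.14 ± 0.11 (SE). Il6st, the chain that all these receptors share, stood at 162, 174 and 144 CPM in the t-PBS and at 160.0, 142 and 144 CPM in the t-DHEA livers. Its log2FC was -0.10 ± 0.10 (SE), and here too the groups overlapped.

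The balance between ligand-binding and shared chains was measured as a ratio of levels. Per length, as FPKM, Lifr was 3.32, 2.72 and 2.29 times Il6st in t-PBS rats 1, 2 and 3, and 6.87, 8.54 and 3.08 times Il6st in t-DHEA rats 1, 2 and 3. The highest of these ratios was 3.73 times the lowest. Il6r over Il6st ran from 0.38 in t-PBS rat 1 to 0.50 in t-DHEA rat 3, a narrow range in which every t-DHEA liver (0.46 to 0.50) was above every t-PBS liver (0.38 to 0.41). Neither gene was separate between the groups alone, and 10.1% of all genes tested were. Nothing is read from this separation, since several ratios of members were formed and looked at. Osmr over Il6st ran from 0.069 in t-PBS rat 3 to 0.20 in t-DHEA rat 2. Its groups were separate as well, but narrowly, at 0.0941 in t-DHEA rat 3 against 0.0927 in t-PBS rat 1. Nothing is read from that separation either. These are ratios of RNA levels, and counts per gene do not separate transcripts of Lifr that encode the membrane receptor from any that encode a soluble form.

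The kinases Jak1 and Jak2 differed between the groups by less than their standard errors. Jak1, the main kinase of gp130 complexes, stood at 215, 229 and 211 CPM in the t-PBS and at 226, 201 and 237 CPM in the t-DHEA livers, with a log2FC of 0.02 ± 0.10 (SE). Jak2, which also serves the growth hormone and prolactin receptors, stood at 19.4, 17.0 and 19.9 CPM in the t-PBS and at 21.2, 16.01 and 19.0 CPM in the t-DHEA livers, with a log2FC of 0.00 ± 0.13 (SE). In FPKM, Jak1 was 11.9 to 15.1 times Jak2 over the 6 livers.

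Stat3, the transcription factor of the pathway, stood at 133, 133 and 132 CPM in the t-PBS livers and at 138, 155 and 129 CPM in the t-DHEA livers. The t-PBS livers differed among themselves by a factor of 1.01 only, and the t-DHEA livers lay on both sides of them. The log2FC was 0.08 ± 0.10 (SE). Socs3, the feedback inhibitor, stood at 9.25, 6.86 and 8.15 CPM in t-PBS rats 1, 2 and 3 and at 6.36, 9.65 and 4.33 CPM in t-DHEA rats 1, 2 and 3. The lowest pair of livers and also the highest liver were t-DHEA, so that the mean difference depended on which rat was counted. The log2FC of -0.25 ± 0.27 (SE) became -0.60 when t-DHEA rat 2 was left out, where Socs3 met the criteria, and -0.01 when t-DHEA rat 3 was. The table counts Socs3 over a single stretch of 863 bases (chromosome 10, from 106975178 to 106976040), whereas RefSeq gives the gene a span of 3397 bases in GRCr8. Its 56 to 132 counts per liver refer to that shorter stretch.

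Of the 8 genes, Lifr and Osmr met the criteria, beside 4.95% of all genes tested. The groups were separate for 0 of the 8 genes, and for 10.1% of all genes tested. Nothing is read from these counts, because the genes were gathered around Lifr with this comparison known.

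Across genes, levels were compared as FPKM. Lifr was the highest, from 106 to 384 FPKM with a median of 165 FPKM over the 6 livers. Jak1 (46.3 to 55.5 FPKM) and Il6st (44.9 to 58.1 FPKM) followed with ranges that overlapped. Stat3 (28.9 to 34.6 FPKM) and Il6r (18.8 to 23.7 FPKM) were each separate from their neighbours in the order. Socs3 (4.96 to 11.1 FPKM), Osmr (3.19 to 9.05 FPKM) and Jak2 (3.30 to 4.35 FPKM) were lowest, and among these Socs3 overlapped Osmr and Osmr overlapped Jak2.

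The 8 genes fell apart by how much they varied between rats of the same group. The measure leaves out the difference between the group means, but Lifr was chosen by that difference in these same livers. With so few livers, such a choice can favour genes that vary widely between rats. The rank of Lifr is therefore a description and is not independent of how it was chosen. The within-group SD of log2 CPM was 0.62 for Lifr, 0.44 for Osmr and 0.43 for Socs3, against a median of 0.19 over all genes tested. Of the 12210 genes, 95.5% varied less than Lifr, 88.7% less than Osmr and 88.1% less than Socs3. Low counts raise this SD, so each gene was also set against genes within 0.5 log2 CPM of its own level. Lifr varied more than 95.5% of 66 such genes, Osmr more than 96.7% of 2223 and Socs3 more than 92.5% of 1912. Stat3 and Jak1, by contrast, had SDs of 0.09 and 0.10, and Il6st, Il6r and Jak2 had SDs of 0.12, 0.13 and 0.17. The receptor chains Lifr and Osmr and the inhibitor Socs3 were thus variable from rat to rat, and the other members were below the median of all genes. Against genes of like level, Jak2 varied more than 58.55%, Il6r more than 48.5% and Il6st more than 42.2%. The shares were 29.3% for Jak1 and 25.8% for Stat3, so that Jak2 was not low for its level.

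**Figure D4:**
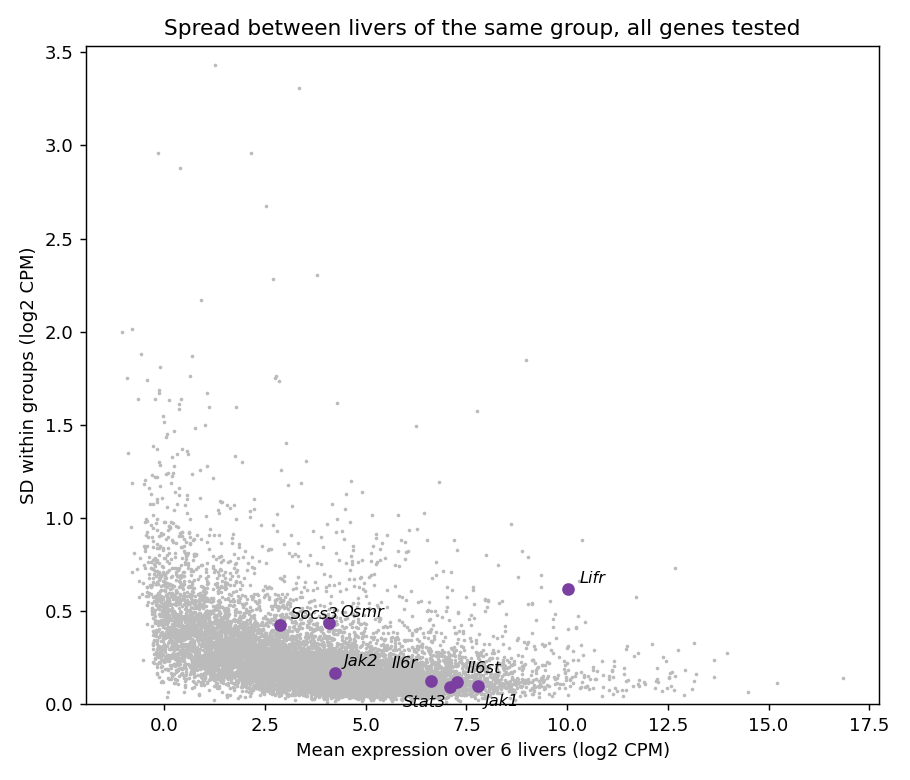
SD of log2 CPM between livers of the same group against mean log2 CPM over the 6 livers, for the 12210 genes tested (grey) and the 8 members (purple). Lifr (0.62), Osmr (0.44) and Socs3 (0.43) lie in the upper part of the cloud at their level, and the 5 others lie between 0.09 and 0.17.

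The rest of the pathway was read from 9 lists of 114 genes, of which 95 were tested. Of the 95, 5 met the criteria (5.26%, against 4.95% of all genes tested), 1 higher and 4 lower in t-DHEA livers, with adjusted p-values of at least 0.805 by edgeR. The median log2 fold change of the 95 was -0.01, against 0.0013 over all genes tested. The 5 genes were Timp1, Ier3, Lcn2, Cd14 and C4bpa, all from the lists of STAT3 targets and acute phase proteins, and no ligand, receptor, kinase or inhibitor met the criteria.

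RNA for the ligands of the family and of related receptors was scarce in these livers. Il6 and Il31 had no count in any liver, and Lif and Il11 had at most 3 counts in any liver. Osm, the ligand of Osmr, had 3, 3 and 5 counts in the t-PBS and 2, 0 and 3 in the t-DHEA livers. Such counts are at the limit of detection at this depth, and a 0 in every liver can also come from the counting, since Hprt1, a gene that every cell uses, is also listed at 0. The 3 ligands with enough counts to be tested were Ctf1, Clcf1 and Cntf, cytokines that act through Lifr and gp130. Ctf1, encoding cardiotrophin 1, had 122, 137 and 101 counts in the t-PBS and 83, 106 and 90 in the t-DHEA livers, with overlapping groups and a log2FC of -0.27 ± 0.16 (SE, adjusted p = 0.986 in edgeR's quasi-likelihood test). Clcf1 had 29, 23 and 32 counts against 36, 32 and 43, which meet at 32, with a log2FC of 0.50 ± 0.25 (SE, adjusted p = 0.974 in the same test). Cntf had 11 to 21 counts and a log2 fold change of 0.01. Ligands made in other organs would not be seen in liver RNA.

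Of 6 further receptor chains of the family or related to it, 4 were tested and none met the criteria, with log2 fold changes from -0.15 to 0.25. Il11ra1, the interleukin 11 receptor, ran from 222 to 351 counts, and Lepr, the leptin receptor, from 320 to 526 counts. Among 7 tested JAK and STAT genes besides the members, the log2 fold changes ran from -0.12 to 0.27 and none met the criteria. Stat2, a factor of interferon signalling, was at 119, 107 and 113 CPM in the t-PBS and 149, 129 and 122 CPM in the t-DHEA livers, without overlap, but its log2FC of 0.24 ± 0.10 (SE, adjusted p = 0.957 in edgeR's quasi-likelihood test) was below the fold-change threshold, which it passed at 0.30 when t-DHEA rat 3 was left out. Jak3 was at 17.7, 17.5 and 17.1 CPM against 17.5, 24.8 and 20.9 CPM, with a log2 fold change of 0.27 that met the criteria at 0.39 when t-DHEA rat 1 was left out. The kinase Tyk2 was at 48.4, 46.0 and 50.65 CPM against 58.9, 54.8 and 51.1 CPM, also without overlap, with a log2FC of 0.18 ± 0.10 (SE). The groups were without overlap for 10.1% of all genes tested.

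None of 15 tested inhibitors of the pathway met the criteria. Their log2 fold changes ran from -0.47 to 0.17 with a median of -0.12, and Socs6 (-0.18) and Pias4 (-0.16) had the lowest p-values among them. Of 14 genes of the arm that runs through the phosphatase SHP2 to MAP kinase, none met the criteria and the median was -0.02. Sos2, an exchange factor for Ras, had the largest difference in this arm, with 106, 88 and 165 counts in the t-PBS and 191, 195 and 117 in the t-DHEA livers. Its log2FC was 0.58 ± 0.28 (SE) and its adjusted p was 0.969 by edgeR, and it met the criteria with DESeq2 (0.58), without the filter on low counts (0.59), and on leaving out rat 3 of the t-PBS (0.91) or of the t-DHEA group (0.79). Grb2, the adaptor upstream of Sos2, had a log2 fold change of 0.11. The table holds a second row of this symbol, with few counts, that was not used. Of 11 tested chains of receptors outside the family whose complexes use JAK1 or JAK2, none met the criteria. Among these the receptor of growth hormone, Ghr, had a log2 fold change of 0.17 and that of interferon gamma, Ifngr1, one of -0.19. On leaving out t-PBS rat 2 these were 0.059 and -0.33, and Ifngr1 then met the criteria. The value of Ghr also fell to 0.087 on leaving out t-DHEA rat 1 and that of Ifngr1 moved to -0.10 on leaving out t-PBS rat 3.

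Of 13 tested regulatory genes that STAT3 is known to induce, with a median log2FC of -0.19, 2 met the criteria, both lower (15.4%, against 2.98% of all genes tested). The other 11 did not, and of all 13, 10 were lower and 3 higher in t-DHEA livers. Timp1, an inhibitor of matrix proteases, stood at 3.995, 7.23 and 4.76 CPM in t-PBS rats 1, 2 and 3 and at 3.06, 2.17 and 3.32 CPM in t-DHEA rats 1, 2 and 3. All t-DHEA livers were below all t-PBS livers, with a log2FC of -0.90 ± 0.28 (SE) and adjusted p = 0.838 by edgeR. Timp1 met the criteria in 6 of 6 fits lacking a liver, with log2 fold changes from -1.07 to -0.62. Ier3, an early response gene, stood at 52.99, 42.6 and 37.0 CPM against 28.8, 38.6 and 33.1 CPM. Its groups overlapped at t-DHEA rat 2, its log2FC was -0.40 ± 0.16 (SE, adjusted p = 0.957 in the same test), and the criteria were met in 2 of 6 fits lacking a liver; it was -0.25 without t-PBS rat 1. Myc and Fos had log2 fold changes of -0.71 and -1.16 with overlapping groups and did not meet the criteria.

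The plasma proteins of the acute phase, the classical output of the pathway in hepatocytes, mostly did not meet the criteria. Of 20 tested, 13 were higher and 7 lower, and the median log2FC was 0.07. The fibrinogen chains Fga, Fgb and Fgg had log2 fold changes of -0.03, -0.02 and -0.04, each with 45150 to 80350 counts per liver. Hp (haptoglobin) had one of 0.18, Hpx (hemopexin) 0.17, Crp (C-reactive protein) 0.02 and Hamp (hepcidin) 0.05. Orm1, of a gene family whose members may share reads, had one of 0.34. Of the 20, 1 was higher and met the criteria, against 1.97% of all genes tested, and 2 were lower and met them, against 2.98%.

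C4bpa, a regulator of complement, stood at 654, 502 and 613 CPM in the t-PBS and at 719, 725 and 713 CPM in the t-DHEA livers, without overlap. Its log2FC was 0.29 ± 0.12 (SE, adjusted p = 0.957 in edgeR's quasi-likelihood test), the criteria were met in 1 of 6 fits lacking a liver, and it was 0.18 without t-PBS rat 2. Nor were they met with limma on FPKM (0.26). Lcn2, encoding lipocalin 2, stood at 8.62, 6.05 and 4.68 CPM against 3.47, 1.94 and 3.86 CPM, also without overlap. Its log2FC was -1.06 ± 0.30 (SE, adjusted p = 0.805 in the same test). The criteria were met in 6 of 6 fits lacking a liver, with log2 fold changes from -1.26 to -0.80. Cd14, the endotoxin co-receptor, stood at 26.1, 14.0 and 31.2 CPM in t-PBS rats 1, 2 and 3 and at 15.9, 12.8 and 15.1 CPM in t-DHEA rats 1, 2 and 3, where t-PBS rat 2 lay within the t-DHEA range. Its log2FC was -0.70 ± 0.26 (SE, adjusted p = 0.933 in the same test), the criteria were met in 3 of 6 fits lacking a liver, and it was -0.46 without t-PBS rat 3. Lcn2 and Timp1 were lowest in t-DHEA rat 2 and the highest of their group in t-DHEA rat 3. The mesothelial sums (6.19, 1.57 and 12.8 CPM in t-DHEA rats 1, 2 and 3) had this order, as did the bile duct and Kupffer cell sums. In t-PBS rats 1, 2 and 3 the mesothelial sums (24.7, 28.4 and 27.55 CPM) had the order of Timp1 but not that of Lcn2. The bile duct and Kupffer cell sums of the t-PBS rats had the order of neither gene. The part of these cells in the differences was not tested.

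Of the plasma proteins that fall in an acute phase response, among them albumin and transthyretin, 8 of 8 were tested and none met the criteria. Their log2 fold changes ran from -0.05 to 0.11 with a median of 0.05.

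**Figure D5:**
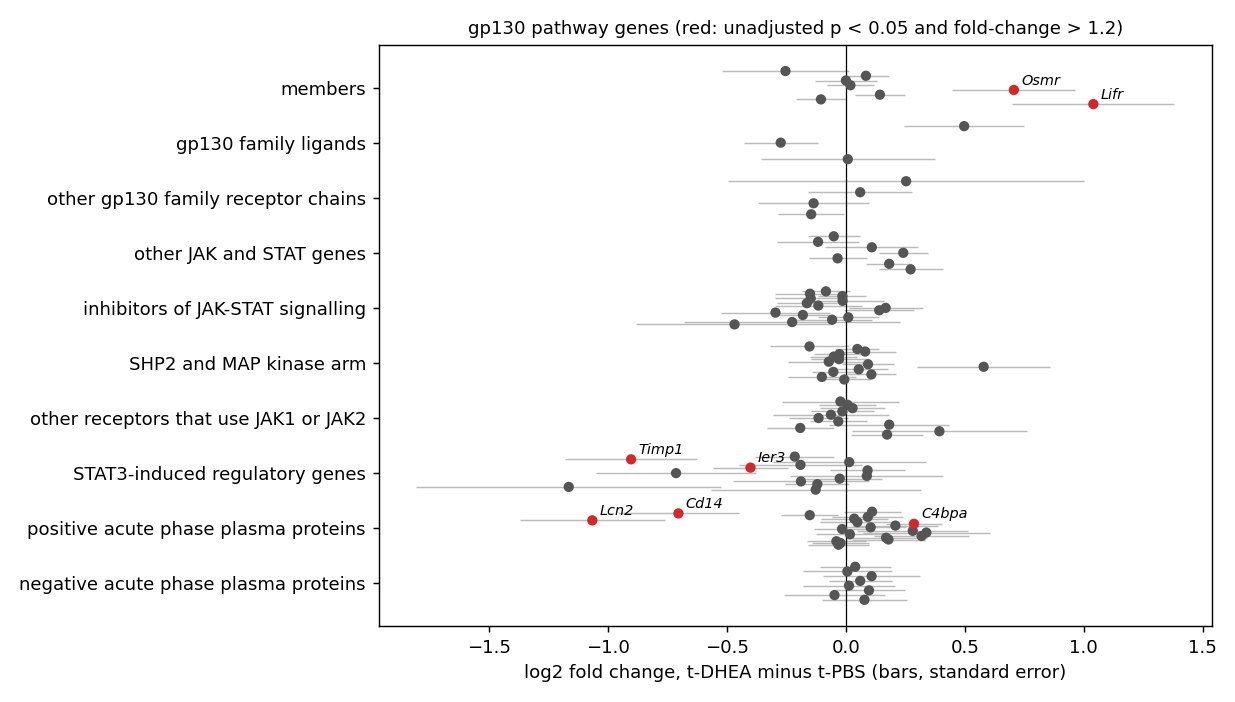
Log2 fold changes (t-DHEA minus t-PBS, bars for the standard error) of the 8 members and of the tested genes of 9 pathway lists, with genes that met the criteria in red. Lifr (1.04) and Osmr (0.71) are to the right among the members, Timp1, Ier3, Lcn2 and Cd14 are to the left, C4bpa is at 0.29, and the ligands, kinases and inhibitors are grey.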

How the data were processed

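Liver RNA of 6 female rats was sequenced as paired-end TruSeq libraries. The authors filtered reads with Seqtk, mapped them to Rnor_6.0 with HISAT2 2.0.4 and counted fragments per gene with StringTie 1.3.0, and they deposited raw counts without normalization. The FPKM values deposited by the authors equal count over gene length and library total within a relative difference of 0.00079, and were used only to compare levels across genes and in 1 alternative. The annotation release and strandedness are not given in the sources used here, which leaves genes that overlap, on either strand, uncertain. Each of the 6 libraries has its group from its label, 0 value columns were left over, and no pair of libraries agreed within sampling noise (lowest chi-square over degrees of freedom 15.3).

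TMM factors, the default low-count filter and the quasi-likelihood test over all genes, without block, were run on the counts in edgeR 4.0.16 (R 4.3.3). The study ran edgeR on FPKM; counts were used here because a count model needs them. CPM uses TMM-scaled library sizes, and log2 CPM a prior count of 2. Standard errors came from the test statistic. The fits were tested on simulated data. Separate cultures or cages are not labelled, so p-values measure the spread between these rats.

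The members and the gene lists were chosen with earlier results of these data known. Of 114 pathway genes, 109 matched a symbol in the table, and the values of a withheld item are not reported here. Named were all members, the genes of each list that met the criteria, the 2 with the lowest p in a list, and the 5 most like Lifr; other genes were named after their values were seen. The alternatives were RLE normalization, DESeq2 1.42.0, dropping the filter, a minimum of 10 counts per liver, limma 3.58.1 on log2(FPKM + 0.1), rat number as a block, and each liver left out.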

Additional observations from a re-analysis of the deposited data

How the results depend on the processing

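No member changed the sign of a called difference in any alternative run. Lifr ran from 0.80 to 1.37 on the log2 scale with each liver left out, and from 0.90 to 1.05 with other normalizations, filters, tools and the block; Osmr ran from 0.43 to 0.94 and from 0.62 to 0.71. Members meeting the criteria numbered 2, between 0 and 2 with a liver left out (0 on leaving out t-PBS rat 3 or t-DHEA rat 1; Lifr and Socs3 on leaving out t-DHEA rat 2) and 1 with limma on FPKM, where Osmr, at 0.62, did not meet them. Other pathway genes meeting them numbered 5, between 3 and 8 with a liver left out, 8 without the filter, where more genes were tested, and 3 with the replicate block. Genes with an adjusted p below 0.05 numbered 0, between 0 and 1 with a liver left out, and 24 with DESeq2. Genes meeting the criteria numbered 604, and 414 with DESeq2, 776 without the filter and 539 with the replicate block. Same-numbered rats did not deviate together (r from -0.0592 to -0.0551 between same-numbered rats), no rat correlated best with its own number in the other group, and the numbers were not taken as pairs. Under the block Lifr was 0.94 and Osmr 0.67, and Ier3 and C4bpa no longer met the criteria. The cause of these shifts was not tested. Il6, Il31, Lif, Il11 and Osm had 0 to 5 counts per liver, too few to compare.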

Other observations

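Socs2, Cish, Prlr, Fos and Junb varied widely from rat to rat, and were singled out after their values were seen. Socs2 and Cish, inhibitors that growth hormone induces through JAK2 and STAT5, moved together without following the groups. Socs2 stood at 56.1, 36.7 and 15.5 CPM in t-PBS rats 1, 2 and 3 and at 16.5, 27.6 and 34.2 CPM in t-DHEA rats 1, 2 and 3. Cish stood at 48.0, 30.3 and 14.1 CPM and at 12.8, 28.3 and 38.0 CPM in the same rats. The livers lowest in both genes were thus t-PBS rat 3 and t-DHEA rat 1, and t-PBS rat 1 was the highest. Their log2 fold changes were -0.47 (standard error 0.41) and -0.22 (standard error 0.45), and 97.5% and 98.2% of genes tested had a smaller within-group SD.

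Prlr, the prolactin receptor, stood at 563, 220.0 and 458 CPM in the t-PBS and at 673, 655 and 303 CPM in the t-DHEA livers, so that t-DHEA rat 3 was the lowest t-DHEA liver for Prlr as it was for Lifr and Osmr, while among t-PBS livers the lowest was rat 2 for Prlr and rat 3 for Lifr. Fos stood at 25.1, 5.53 and 15.6 CPM against 4.29, 13.8 and 2.40 CPM, and Junb at 78.9, 32.5 and 81.4 CPM against 53.5, 95.4 and 27.7 CPM, with t-DHEA rat 3 the lowest liver for both and also for Socs3. These are values of single livers, and no difference between them was tested.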
